A study of Mus musculus with 12 samples.

Results

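ATP-binding cassette (ABC) transporters are described here across mouse small-intestinal epithelium of 2 embryonic stages and 2 adult cell populations. The family was taken as every gene symbol made of Abc, a subfamily letter from a to g, a number and an optional a or b. Of 23366 gene entries 50 matched, and Abcg5, Abcg8 and Abca1 were set aside as sterol transporters, which left 47 members. Of the 47, 38 were among the 15342 genes with enough counts to be tested. The rule reads gene symbols only.

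ABC proteins bind and split ATP through a shared nucleotide-binding domain. Most members use that energy to move a substrate across a membrane, and the subfamily letter follows sequence likeness more than substrate. In the intestine, P-glycoprotein (Abcb1a), Mrp2 (Abcc2) and Bcrp (Abcg2) sit in the brush border and return drugs, plant compounds and conjugates to the lumen, while Mrp3 (Abcc3) exports conjugates at the basolateral side. ABCD proteins feed fatty acids into peroxisomes, and several ABCB proteins work in mitochondria and lysosomes. ABCE and ABCF proteins have no membrane-spanning part and act on ribosomes.

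RNA was sequenced from 3 libraries in each of 4 groups of mixed C57BL/6 CD1 mice. E12.5 and E14.5 were embryonic epithelium sorted as EpCAM+CD31-CD45-, with EpCAM marking epithelium, CD31 endothelium and CD45 white blood cells. ISC were crypt stem cells of Lgr5EGFP-Cre-ERT males at postnatal day 60, sorted on high fluorescence of a reporter driven by the stem-cell gene Lgr5. AE were villus cells of Lgr5EGFP-Cre-ERT males of the same age under the EpCAM+CD31-CD45- gate, so the transgene was carried by both adult groups and is not stated for the embryos. Each E12.5 library pooled 20 embryos and each adult library came from 1 gut, and no label says whether an ISC and an AE library shared an animal. The age field of all 6 embryonic libraries names the other stage than the title. Titles were followed, so the sign of E14.5 against E12.5 rests on them. In comparisons of an adult with an embryonic group, the stage named and the size rest on them, and for some genes the sign.

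Total gene counts ran from 12587626 to 45190749 per library. Reads aligned to several places were listed in E12.5 and ISC and stood at 0 in E14.5 and AE, so the successive comparisons E14.5 against E12.5, ISC against E14.5 and AE against ISC all cross that difference in handling. The other pairs of groups, ISC with E12.5 and AE with E14.5, were handled alike. Summed markers, in TMM-normalised counts per 1000000 counts (CPM, the level used throughout), were compared with the sorts. Epithelial markers summed to 1548 to 1809.6 at E12.5 and 2611 to 2708 at E14.5. Mesenchyme and smooth muscle markers summed to 26.6 to 36 at E12.5 and 262 to 338 at E14.5. All 13 of the latter were higher at E14.5, beside 23.6% of all genes tested. Stem-cell markers reached 6399 to 6963 in ISC and 609 to 713 in AE. Enterocyte markers summed to 27093, 55284 and 56437 CPM in the 3 AE libraries, so AE replicate 1 stood lowest, against at most 1605 elsewhere. Endothelial markers summed to at most 6.38 CPM in any library. Immune markers summed to 24.5 to 30.4 CPM at E12.5, 30.0 to 31.9 at E14.5, 33.1 to 34.3 in ISC and 37.8 to 67.2 in AE. These are bulk libraries, in which a change in the share of cells that carry a transcript and a change in transcript per cell cannot be told apart.

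Family RNA was highest in adult villus epithelium. Summed over the 47 members, the level was 1325 ± 2.6 CPM at E12.5 (SD, n = 3) and 1355 ± 18 at E14.5, then 1554 ± 75 in ISC and 4595 ± 964 in AE. The AE libraries held 3488, 5255 and 5039.9 CPM, each above every library of the other groups. The size of that rise depends on scaling, since TMM factors were 0.70 to 0.84 in AE and 1.11 to 1.16 in the embryonic groups. As a share of unscaled gene counts, the family held 0.146% to 0.152% in E12.5 and 0.155% to 0.156% in E14.5. That share was 0.154% to 0.169% in ISC and 0.291% to 0.369% in AE. The leading gene was Abce1 in both embryonic groups and Abcc2 in both adult groups, where it made up 14.2% of the ISC sum and 31.8% of the AE sum. All 38 tested members differed among the 4 groups, beside 93.3% of all genes tested. AE held the highest group mean for 19 of the 38, where 33.9% of all genes had theirs, and E12.5 for 13, where the share of all genes was 31.7%. E14.5 was highest for 4 members beside 14.9% of all genes, and ISC for 2, Abcc1 and Abcc6, beside 19.5%.

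Counted by comparison, AE against ISC was the step with the most members higher. There 18 of 38 rose and 6 fell at an adjusted p under 0.05, where 32.6% of all genes tested rose and 35.2% fell. The median log2 change of the family was 0.55, beside -0.053 over all genes. At E14.5 against E12.5, 12 rose and 11 fell, with backgrounds of 23.6% and 25.6%. In ISC against E14.5, 10 rose and 14 fell, with backgrounds of 30.2% and 30.6%. As shares of the 38, these were 47.4% up and 15.8% down in AE, 31.6% and 28.9% at E14.5, and 26.3% and 36.8% in ISC. All 6 of 6 enterocyte markers rose in AE as well, and their part in the family's AE rise was not tested. Over the 3 steps, Abcb1a, Abcc2 and Abcd4 rose each time and Abcc4 and Abcc5 fell each time. A further 13 members rose at least once without falling, 11 fell at least once without rising, 8 did both, and Abcf1 passed the test at no step. These patterns were not counted over all genes, so whether they are more frequent in the family is not known.

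**Figure D1:**
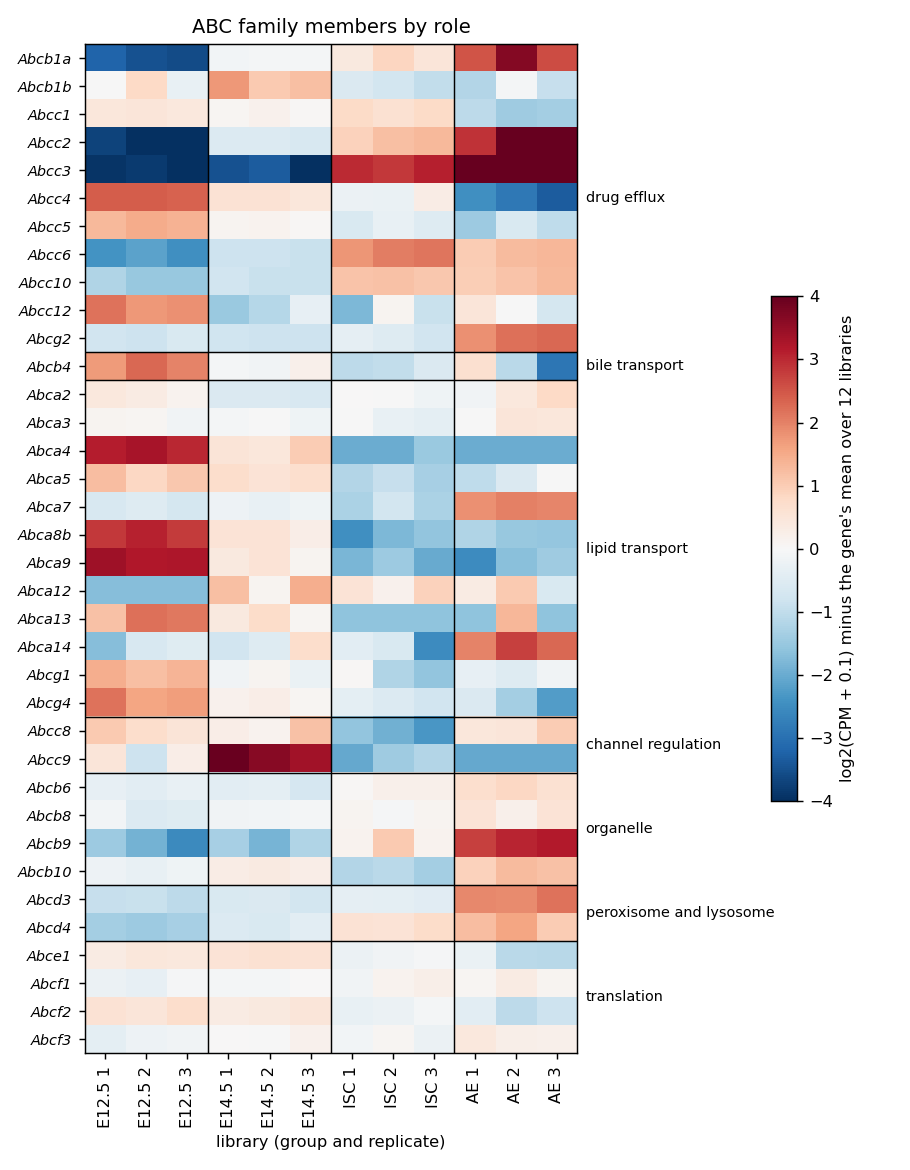
Level of 36 of the 38 tested members (rows, grouped by role) in each of the 12 libraries (columns, grouped by E12.5, E14.5, ISC and AE). Colour is log2(CPM + 0.1) minus the gene's mean over the libraries, red for above and blue for below, with the scale ending at 4 either way. The AE columns are red for the peroxisomal, lysosomal and organelle genes drawn, while the drug efflux block holds both rising and falling rows.

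Within the AE rise the subfamilies differed. ABCD went from 189 ± 2.2 CPM in ISC to 1021 ± 153 in AE, ABCC from 506 ± 41 to 1827 ± 675, ABCB from 322 ± 20 to 971 ± 249 and ABCG from 42.7 ± 6.6 to 264 ± 42. In these 4 subfamilies the AE libraries lay above every other library. ABCA, with 88.9 ± 8.1 in ISC and 175 ± 30 in AE, had 1 AE library at 141, inside the E12.5 range of 132 to 150.3. ABCE ran the other way, at 272 ± 11 and 306 ± 6.8 CPM in the younger and older embryo, 185 ± 12 in ISC and 119.7 ± 43 in AE. ABCF differed less, at 245 ± 20 CPM in E12.5 and 249 ± 13 in E14.5 against 221 ± 18 in ISC and 217 ± 11 in AE. The AE libraries lay below every embryonic one for it and overlapped ISC, and ISC overlapped E12.5. A sum follows its most abundant gene: Abcc2 was 80.1% of ABCC in AE, Abcd3 69.7% of ABCD, Abcb1a 56.9% of ABCB and Abcg2 99.3% of ABCG. The leader of ABCC changed, since Abcc4 held 37.7% of the E12.5 sum and 2.77 CPM in AE.

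**Figure D2:**
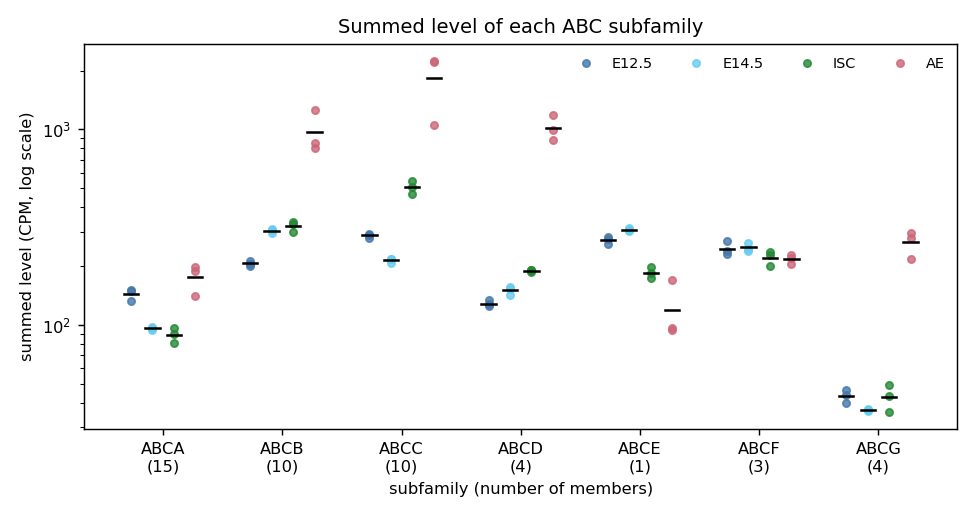
Summed level of each subfamily (CPM, log scale), with 1 point per library, a black bar at the mean of 3 libraries, and colour for the group. The number of members is given under each letter. AE points stand apart above the rest in ABCB, ABCC, ABCD and ABCG. In ABCE 2 AE points lie well below the rest and AE replicate 1 lies just under ISC.

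Per kilobase of transcript, the scale that allows genes to be compared, the ranking of the family turned over as well. Abce1 led in E12.5, E14.5 and ISC with 71.7, 80.8 and 48.8 CPM per kb. In AE it gave way to Abcd3 at 203.9, Abcc2 at 182.3 and Abcb1a at 110.5 CPM per kb, while Abcg2 reached 45.8. Lengths came from GENCODE M21 transcripts, which are of a later build than the mm9 genome of the counts.

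Of 12 drug and conjugate efflux genes, 11 were tested. At E14.5 5 rose and 4 fell, beside 23.6% and 25.6% of all genes. In ISC against E14.5 6 rose and 3 fell, beside 30.2% and 30.6%. From ISC to AE 4 rose and 4 fell, or 36.4% each way, near the 32.6% and 35.2% of all genes. The 4 that rose in AE were Abcb1a, Abcc2, Abcc3 and Abcg2, and the 4 that fell were Abcc1, Abcc4, Abcc5 and Abcc6.

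Abcb1a, which encodes the main P-glycoprotein of mouse intestine, rose stepwise. Its level was 7.28, 5.91 and 5.61 CPM in the E12.5 libraries, 62.9, 63.5 and 64.1 in E14.5, 88.1, 123 and 94.3 in ISC and 384, 862 and 410.4 in AE. No 2 groups overlapped, and AE replicate 2 stood at over 2 times the other AE libraries. The log2 change was 3.34 ± 0.28 (estimate ± SE, adjusted p = 5.0e-07) at E14.5 and 2.44 ± 0.26 (adjusted p = 1.3e-06) from ISC to AE. The ISC against E14.5 step was smaller, 0.68 ± 0.25 with an adjusted p of 0.027. It lost its call when any 1 E14.5 library, ISC replicate 2 or ISC replicate 3 was left out, with log2 changes of 0.52 to 0.70 and adjusted p of 0.052 to 0.12.

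Abcb1b, the neighbouring P-glycoprotein gene, did not share that course. Its libraries held 0.513, 0.977 and 0.404 CPM in E12.5, 1.97, 1.19 and 1.32 in E14.5, 0.317, 0.272 and 0.217 in ISC and 0.175, 0.49 and 0.228 in AE, so that no library reached 2 CPM. It fell 5.57-fold from E14.5 to ISC (adjusted p = 3.3e-04). The rise at E14.5, log2 1.27 ± 0.38 (adjusted p = 0.014), lost its call without E12.5 replicate 1, E12.5 replicate 3 or E14.5 replicate 1, with adjusted p of 0.061 to 0.086. AE and ISC overlapped, with a log2 difference of 0.051 ± 0.62, whose sign turned under other settings.

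Whether reads of the pair can be told apart rests on their sequence. Over 3822 aligned coding positions of GENCODE M21 transcripts the genes were 88.0% identical, with 13 identical runs of at least 50 bases. Of the 50-base stretches of each transcript, 18.6% for Abcb1a and 19.6% for Abcb1b occurred in a transcript of another gene. The windows of 90 coding bases in which they differ most are shown to let a reader see what separates them. Capitals mark the 29 positions that differ, and positions count from the first coding base, 1883 to 1972 in Abcb1a and 1892 to 1981 in Abcb1b.

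Abcb1a: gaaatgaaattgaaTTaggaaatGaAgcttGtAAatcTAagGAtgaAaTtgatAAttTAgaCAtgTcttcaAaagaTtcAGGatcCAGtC
Abcb1b: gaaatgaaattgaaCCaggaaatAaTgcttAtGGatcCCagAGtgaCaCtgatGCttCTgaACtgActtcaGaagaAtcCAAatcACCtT

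Upstream sequences of the pair and of Abcc2 are shown because Abcb1a and Abcc2 rose together at every step and Abcb1b did not. They are the 250 bases before the RefSeq start on GRCm38.p6, all on the plus strand: chr5:8566841-8567090 for Abcb1a, chr5:8797897-8798146 for Abcb1b and chr19:43782058-43782307 for Abcc2. Capitals mark matches, on either strand, to 7 short motifs: the GC box GGGCGG, the CCAAT box CCAAT, the TATA box TATAAA, the HNF1 half-site GTTAAT, the nuclear receptor half-site AGGTCA, the GATA motif AGATAA and the xenobiotic response core GCGTG.

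Abcb1a: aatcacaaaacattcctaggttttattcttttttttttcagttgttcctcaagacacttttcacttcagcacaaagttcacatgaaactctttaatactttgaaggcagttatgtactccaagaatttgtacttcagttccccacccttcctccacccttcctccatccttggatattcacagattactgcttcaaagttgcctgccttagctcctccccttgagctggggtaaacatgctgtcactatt
Abcb1b: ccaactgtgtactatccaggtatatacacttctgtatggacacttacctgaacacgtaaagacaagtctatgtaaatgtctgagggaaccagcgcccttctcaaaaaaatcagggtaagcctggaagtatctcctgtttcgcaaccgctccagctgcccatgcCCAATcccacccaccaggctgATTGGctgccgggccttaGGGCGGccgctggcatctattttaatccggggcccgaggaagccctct
Abcc2: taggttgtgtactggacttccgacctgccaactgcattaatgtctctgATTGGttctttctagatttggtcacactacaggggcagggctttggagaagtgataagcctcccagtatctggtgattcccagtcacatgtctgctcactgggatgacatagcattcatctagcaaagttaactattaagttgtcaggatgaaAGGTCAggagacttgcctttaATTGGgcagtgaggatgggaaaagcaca

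None of the 7 motifs was found in the Abcb1a window. The Abcb1b window held 1 GC box and 2 CCAAT boxes, and the Abcc2 window 2 CCAAT boxes and 1 nuclear receptor half-site, with no matches overlapping. Among 32851 promoter windows of the same length, 32.7% held a GC box, 33.8% a CCAAT box and 14.0% a nuclear receptor half-site. Over the 41 windows found for 35 members the shares were 46.3%, 29.3% and 17.1%. For the other motifs the shares over all windows and over members' windows were 12.4% and 4.88% for the TATA box, 6.43% and 0% for the HNF1 half-site, 9.99% and 7.32% for GATA, and 28.2% and 29.3% for the xenobiotic core. These matches describe letters and are not binding sites, and a window without a match lacks only these letters.

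Abcc2 exports glucuronide, sulfate and glutathione conjugates across the brush border. It was the most abundant member in AE by CPM. The libraries held 7.51, 3.64 and 4.04 CPM in E12.5, 68.2, 68.2 and 63.4 in E14.5, 189.8, 228 and 246 in ISC and 739.7, 1854 and 1796 in AE. Groups did not overlap, and AE replicate 1, which was also lowest for enterocyte markers, held less than its fellows. Log2 changes were 3.70 ± 0.34 at E14.5 (adjusted p = 1.2e-06), 1.73 ± 0.30 from E14.5 to ISC (adjusted p = 1.8e-04) and 2.73 ± 0.31 from ISC to AE (adjusted p = 2.7e-06). Without AE replicate 1 the last change was 8.24-fold in place of 6.61-fold.

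Abcc3, the basolateral exporter of glucuronides and bile salts, was an adult gene in these libraries. It stood at 0.417, 0.444 and 0.257 CPM in E12.5 and 0.598, 0.683 and 0.264 in E14.5, groups that overlapped. Levels were 61.5, 55.7 and 67.4 CPM in ISC and 183, 228 and 266 in AE, so each adult library lay far above each embryonic one. The rise from E14.5 to ISC was 109.5-fold (log2 6.78 ± 0.24, adjusted p = 1.9e-11) and from ISC to AE 3.66-fold (adjusted p = 2.8e-07).

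Abcg2, a half-transporter for urate, porphyrins and many drugs, passed the test at 1 of the 3 steps. E12.5, E14.5 and ISC libraries held 35.8, 33.8 and 39.8, then 34.6, 33.9 and 34, then 46.5, 42.2 and 35.1 CPM, with the E12.5 range overlapping the other two. In AE it was 214, 278 and 294 CPM, a log2 change of 2.67 ± 0.14 over ISC (adjusted p = 2.3e-09). Neither earlier step passed the test, at log2 -0.10 ± 0.13 and 0.27 ± 0.13.

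Abcc6 and Abcc10 gained most in ISC, after a smaller rise at E14.5. In E12.5 Abcc6 stood at 2.6 ± 0.31 CPM and Abcc10 at 10.2 ± 1.3. For both genes every E14.5 library lay above every E12.5 one. Abcc6, an exporter whose loss causes ectopic mineralisation, was 7.5, 7.57 and 7.25 CPM in E14.5 and 45.9, 56 and 59.4 in ISC, a log2 change of 2.85 ± 0.14 (adjusted p = 6.3e-10). It then fell to 27.1, 32.3 and 33.9 CPM in AE (log2 -0.80 ± 0.13, adjusted p = 1.0e-04), with no overlap between any 2 groups. Abcc10, a lipophilic drug exporter, went from 15.8, 14.6 and 14.6 CPM in E14.5 to 60.5, 61.3 and 57.6 in ISC (log2 1.99 ± 0.12, adjusted p = 4.4e-09). In AE it was 54.3, 60.9 and 66.5 CPM, overlapping ISC, with a log2 difference of 0.014 ± 0.11 whose sign turned under other settings.

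**Figure D3:**
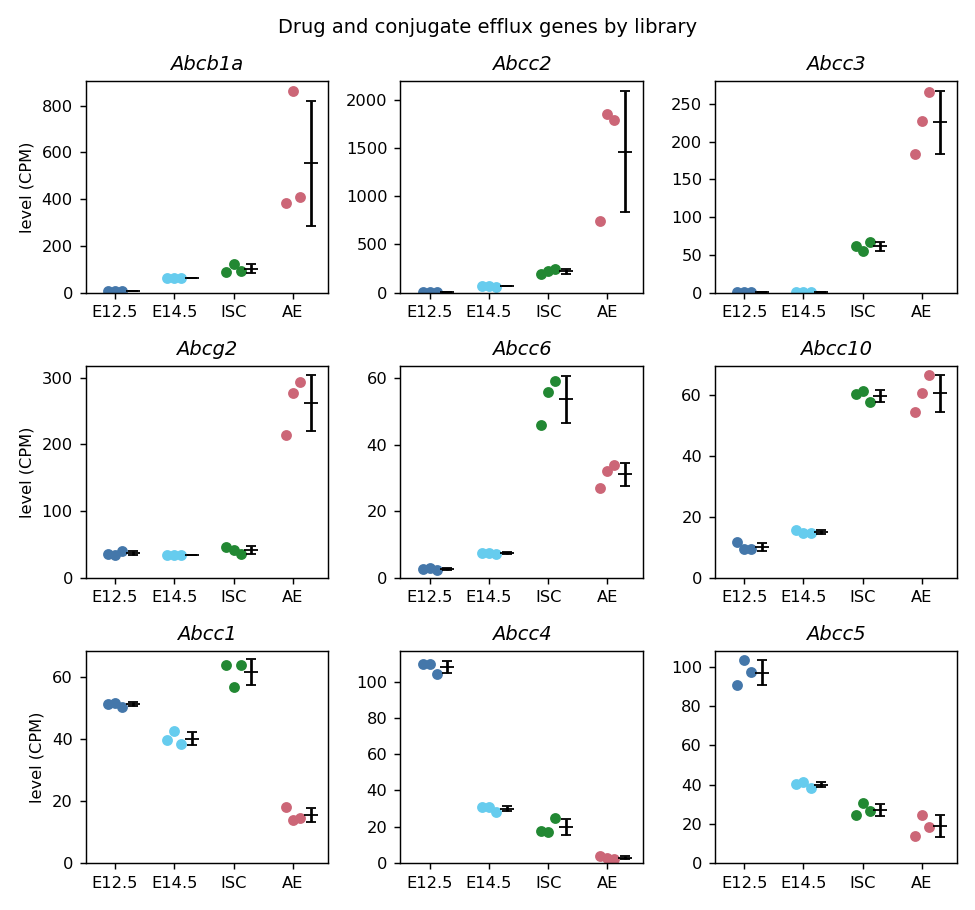
Level (CPM, linear axis from 0) of 9 drug and conjugate efflux genes, with 1 point per library and the mean ± SD of 3 libraries beside each group. In the upper row the highest points are AE for Abcb1a, Abcc2 and Abcc3. Abcc4 and Abcc5 in the lowest row start at their highest in E12.5, and Abcc1 drops in AE.

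Abcc4 and Abcc5 fell at each step. Abcc4, which exports cyclic nucleotides and prostaglandins, went from 109.9, 110.0 and 104 CPM in E12.5 to 30.7, 30.8 and 28.2 in E14.5, 17.5, 16.8 and 25 in ISC and 3.68, 2.7 and 1.94 in AE. No 2 groups overlapped. It fell 3.61-fold at E14.5 (log2 -1.85 ± 0.16, adjusted p = 9.0e-07), 1.51-fold from E14.5 to ISC (adjusted p = 0.0064) and 6.69-fold from ISC to AE (adjusted p = 4.2e-08). Abcc5, a related exporter of cyclic nucleotides, held 90.7, 103 and 97.6 CPM in E12.5 and 40.3, 41.1 and 38.5 in E14.5, a log2 change of -1.28 ± 0.16 (adjusted p = 2.3e-05). Its ISC libraries held 24.5, 30.5 and 26.3 CPM and its AE libraries 13.7, 24.5 and 18.4, a slight overlap. That fall, log2 -0.54 ± 0.17 (adjusted p = 0.012), lost its call without ISC replicate 2 (adjusted p = 0.054) and when only the 6 libraries of the pair were fitted (adjusted p = 0.074).

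Abcc1, the ubiquitous glutathione-conjugate and leukotriene exporter, was high in stem cells and low on the villus. It was 51.3, 51.7 and 50.4 CPM in E12.5, 39.6, 42.4 and 38.3 in E14.5, 63.9, 56.8 and 64 in ISC and 18, 13.9 and 14.6 in AE. From ISC to AE it fell 3.94-fold (log2 -1.98 ± 0.12, adjusted p = 6.4e-09), and from E14.5 to ISC it rose 1.53-fold (adjusted p = 2.4e-04). Its fall at E14.5, log2 -0.35 ± 0.11, lost its call without E12.5 replicate 2, E14.5 replicate 1 or E14.5 replicate 3 (adjusted p 0.051 to 0.075). Abcc12 was detected mainly in E12.5, at 1.48, 1.07 and 1.14 CPM, against 0.0249, 0.0585 and 0.176 in E14.5, a fall of 16-fold (log2 -4.0 ± 0.60, adjusted p = 1.0e-04) or, without E14.5 replicate 3, of 25.4-fold. The 6 adult libraries held at most 0.385 CPM of it.

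Among the receptors and sensors known to control these genes, most rose. Of 15 tested, 10 rose and none fell at E14.5, beside 23.6% and 25.6% of all genes. In ISC against E14.5 9 rose and 1 fell, beside 30.2% and 30.6%, and in AE against ISC 12 rose and 1 fell, beside 32.6% and 35.2%. Nr1i2, the xenobiotic receptor PXR, went from 1.95 to 33 CPM between the embryonic stages and was 67.2 in ISC and 151 in AE, with log2 changes of 4.04, 1.03 and 1.17 (adjusted p = 4.2e-07, 0.0045 and 0.0015). Vdr, the vitamin D receptor, was 4.32 CPM in E14.5 and 1394 in ISC (log2 8.34, adjusted p = 1.4e-12). Nr1i3, the receptor CAR, had the largest gain in AE, from 6.19 to 83.2 CPM (adjusted p = 3.8e-08).

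Solute carriers of organic ions, peptides and nucleosides share substrates with the efflux genes, and most of those listed bring them into cells. Of 16 tested, 3 rose and 3 fell at E14.5, or 18.8% each way, under the 23.6% and 25.6% of all genes. In ISC against E14.5 9 rose and 2 fell, beside 30.2% and 30.6%. From ISC to AE 10 rose, beside 32.6%, and 5 fell, or 31.2%, near the 35.2% of all genes. The largest gains in AE were Slc47a1, itself an apical exporter that exchanges organic cations for protons, from 0.437 to 67.1 CPM, and the nucleoside carrier Slc28a1, from 2.23 to 201 CPM. The peptide carrier Slc15a1 went from 9.68 to 745 CPM (log2 6.27, adjusted p = 3.0e-07).

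Abcb4 and Abcb11, 2 bile transporters of the liver, were scarce. Abcb4, a phosphatidylcholine floppase, was 2.28, 3.55 and 2.79 CPM in E12.5 and 0.598, 0.566 and 0.747 in E14.5, a fall of 4.54-fold (log2 -2.18 ± 0.46, adjusted p = 0.0015). In ISC it was 0.253, 0.272 and 0.391 CPM and in AE 1.05, 0.245 and 0, a spread in AE from none to more than 1 CPM. Markers of liver and pancreas summed to 113 to 148 CPM at E12.5 and 140.4 to 245 at E14.5, with 18.9 to 35.5 in ISC and 91.7 to 132 in AE. Most of the AE sum was Afp, at a mean of 104 CPM, and most of the ISC sum was Ttr, at 27.8. In E14.5 against E12.5, 5 of these 8 markers were tested. Among them 1 rose and 2 fell, beside 23.6% and 25.6% of all genes. The part of such cells in the Abcb4 fall was not tested. Abcb11, the bile salt export pump, had 3 counts in all of E14.5, 12 in AE and none in E12.5 or ISC, and was not tested.

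The intestinal partners of bile acid handling rose mainly in AE. Of 6 genes, 3 rose at E14.5, beside 23.6% of all genes. In ISC against E14.5 2 rose, or 33.3%, near the 30.2% of all genes, and 1 fell, beside 30.6%. In AE against ISC 5 rose, beside 32.6%. Slc51a, which encodes a basolateral bile acid carrier subunit, was 9.2 CPM in ISC and 239 in AE, and the cytosolic binder Fabp6 11.6 and 229 (adjusted p = 2.6e-08 and 3.9e-05). The 3 sterol transporters set aside from the family rose at both adult steps. Abcg5 and Abcg8, partners that pump plant sterols back to the lumen, stood at 48.1 ± 0.40 and 60.8 ± 5.4 CPM in ISC and 330.3 ± 87 and 422 ± 168 in AE. Abca1, the cholesterol exporter that builds HDL, was 17.2 ± 4.6 CPM in ISC and 82.4 ± 38 in AE.

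Of 17 lipid transporters, mostly ABCA, 12 were tested. Among them 2 rose and 6 fell at E14.5, beside 23.6% and 25.6% of all genes, and 1 rose and 6 fell in ISC against E14.5, beside 30.2% and 30.6%. In AE against ISC 4 rose, or 33.3%, near the 32.6% of all genes, and none fell, beside 35.2%. The summed ABCA level was highest in AE, at 175 ± 30 CPM against 144 ± 10 in E12.5. The abundant pair was Abca3, which loads phospholipid into lamellar bodies in lung, and Abca2, an endolysosomal relative.

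Abca3 was nearly level until AE. Its libraries held 56.6, 54.8 and 47.3 CPM in E12.5, 49, 51.2 and 46.5 in E14.5, 51.1, 42.8 and 39.8 in ISC and 51.9, 72.8 and 70.7 in AE. Only the rise from ISC to AE among the 3 steps passed the test, at log2 0.54 ± 0.14 (adjusted p = 0.0033). Abca2 fell from 48.5, 45.7 and 40.4 CPM in E12.5 to 24, 24.3 and 23.3 in E14.5 (log2 -0.91 ± 0.18, adjusted p = 7.8e-04) and rose to 36.6, 35.8 and 32.2 in ISC (adjusted p = 0.016). The AE libraries, at 32.8, 48.1 and 63 CPM, overlapped ISC. Their log2 rise of 0.45 ± 0.18 (adjusted p = 0.038) lost its call under 12 of 18 alternative settings, with adjusted p of 0.051 to 0.22, among them upper-quartile scaling and leaving out any ISC library, any E14.5 library, E12.5 replicate 2, AE replicate 2 or AE replicate 3.

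Abca7, a phospholipid exporter linked to phagocytosis, was the member of this group with the clearest villus rise. It held 8.73, 9.5 and 8.44 CPM in E12.5, 11.9, 11.1 and 12 in E14.5, 5.7, 8.17 and 5.65 in ISC and 48.9, 56.2 and 53.9 in AE. ISC was lowest and AE highest. The log2 change was -0.84 ± 0.15 from E14.5 to ISC (adjusted p = 2.3e-04) and 3.02 ± 0.15 from ISC to AE (adjusted p = 1.9e-09). Abca14 rose too, from 0.697, 0.599 and 0.087 CPM in ISC to 4.1, 6.94 and 5.14 in AE (log2 3.61 ± 0.58, adjusted p = 7.7e-05).

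The Abca5, Abca8b and Abca9 genes, which belong to 1 gene cluster, declined. Abca8b was 18.5, 22.1 and 18 CPM in E12.5, 3.76, 3.75 and 3.08 in E14.5, 0.38, 0.654 and 0.783 in ISC and 1.05, 0.817 and 0.799 in AE. It fell 5.49-fold at E14.5 (adjusted p = 1.8e-07) and 5.66-fold from E14.5 to ISC (adjusted p = 6.8e-07). Abca9 went from 6.00, 5.2 and 5.36 CPM to 0.648, 0.742 and 0.527, a fall of 8.42-fold (adjusted p = 1.6e-06), and had 4 counts over the 3 ISC libraries and 2 over the AE libraries. Abca5, at 7.15, 5.42 and 6.38 CPM in E12.5 and 4.98, 4.45 and 4.83 in E14.5, fell later, 3.64-fold from E14.5 to ISC (adjusted p = 2.0e-05). Their cluster mates Abca6 and Abca8a, too low to test, held 10 and 29 counts over E12.5 and none over ISC.

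Other lipid genes were low. Abca4, the retinoid flippase of photoreceptors, was 3.4, 3.77 and 3.08 CPM in E12.5 and 0.473, 0.449 and 0.703 in E14.5 (log2 -2.69 ± 0.32, adjusted p = 3.0e-05), with 1 count over ISC and 0 over AE. Abca12, which loads skin lipids, had no count in E12.5 and 0.648, 0.254 and 0.791 CPM in E14.5, at least 15.2-fold higher when 3 counts are taken as the E12.5 total. Its ISC libraries, at 0.38, 0.272 and 0.522 CPM, and its AE libraries, at 0.315, 0.572 and 0.114, overlapped E14.5. Abca13 was 0.578, 1.29 and 1.21 CPM in E12.5 and had no count in ISC, at least 19.5-fold lower on the same basis, while E14.5 held 0.299, 0.41 and 0.22 CPM and AE 0, 0.654 and 0. Abcg1 and Abcg4, sterol exporters to HDL, fell at E14.5, Abcg1 from 5.24 ± 0.47 to 1.89 ± 0.27 CPM (adjusted p = 0.0014), with 1.17 ± 0.80 in ISC and 1.6 ± 0.22 in AE, and Abcg4 from 1.56 ± 0.38 to 0.429 ± 0.037 (adjusted p = 7.3e-04).

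The sulfonylurea receptors Abcc8 and Abcc9 regulate potassium channels and transport no known substrate. Abcc9 was an E14.5 gene. Its libraries held 0.481, 0.133 and 0.404 CPM in E12.5 and 6.35, 5.05 and 4.17 in E14.5, a log2 change of 3.87 ± 0.39 (adjusted p = 8.4e-06). ISC had 3 counts in all. AE had none, which puts it at least 85.8-fold lower than E14.5 when 3 counts are taken as its total. Kcnj8, the pore that Abcc9 regulates in smooth muscle and pericytes, went from 0.203 to 1.7 CPM between the embryonic stages (adjusted p = 4.3e-04) and was at 0 in ISC. Summed markers of mesenchyme and smooth muscle moved the same way. They summed to 26.6 to 36 CPM at E12.5 and 262 to 338 at E14.5, but 8.93 to 9.35 in ISC and 13.4 to 14.2 in AE. All 13 of 13 rose at E14.5, beside 23.6% of all genes, and Des, Col6a1 and Lum were at 0 in ISC. In AE against E14.5 12 fell and 1 rose, beside 41.5% and 36.7% of all genes. Most of the AE sum was Tagln, at a mean of 10.2 CPM against 5.8 in E14.5. The part of such cells in the Abcc9 level was not tested.

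Abcc8, the partner of Kcnj11 in endocrine cells, was 12.3, 9.55 and 8.44 CPM in E12.5, 7.1, 6.52 and 13.2 in E14.5, 1.9, 1.47 and 1.09 in ISC and 8.13, 8.33 and 12 in AE. ISC lay below every other library. The log2 change was -2.60 ± 0.32 from E14.5 to ISC (adjusted p = 8.6e-06) and 2.68 ± 0.33 from ISC to AE (adjusted p = 6.2e-06). Kcnj11 followed, at 1.81 CPM in E14.5 and 0.191 in ISC and 1.25 in AE. Enteroendocrine markers summed to 78.5, 66.9 and 150.1 CPM in the E14.5 libraries, highest in replicate 3 as for Abcc8. They summed to 100.3 to 155 CPM in ISC and 975 to 1145 in AE. From E14.5 to ISC 1 of 6 rose and 3 fell, from ISC to AE 6 of 6 rose, and none was at 0 in any group. Markers of liver and pancreas, which include the islet gene Ins2, summed to 140.4 to 245 CPM in E14.5, highest in replicate 3 as for Abcc8, to 18.9 to 35.5 in ISC and to 91.7 to 132 in AE. Of 8, 5 were tested, 4 fell from E14.5 to ISC, 2 rose and 1 fell from ISC to AE, and Prss1 and Ins2 were at 0 in both adult groups. Afp made up most of the AE sum of this list, at a mean of 104 CPM, and Ttr most of the ISC sum, at 27.8. Markers of enteric neurons and glia summed to 22.1 to 22.6 CPM in E14.5 libraries, then 4.06 to 4.74 in ISC and 6.06 to 9.82 in AE, with 6 of 7 falling into ISC, 2 rising and 1 falling into AE, and Sox10 at 0 in ISC. Over all genes tested, 30.2% rose and 30.6% fell from E14.5 to ISC, and 32.6% rose and 35.2% fell from ISC to AE. The part of any of these cells in the Abcc8 change was not tested.

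Organelle members of ABCB all rose in AE. In AE against ISC 5 of 5 passed the test, beside 32.6% of all genes. Abcb8, a mitochondrial transporter tied to iron, held 61.6, 45.7 and 46.9 CPM in E12.5, 60.4, 60.8 and 63.3 in E14.5, 71.8, 63.9 and 71.1 in ISC and 96.2, 76.5 and 97.1 in AE. AE lay above every other library, and ISC above every embryonic one. From ISC to AE it rose 1.3-fold (log2 0.38 ± 0.13, adjusted p = 0.017). That call was lost without ISC replicate 2 (adjusted p = 0.075) and under upper-quartile scaling (adjusted p = 0.21).

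Abcb10, an inner-membrane protein of haem synthesis, dipped in stem cells. It was 29.9, 27.7 and 30.2 CPM in E12.5, 42.1, 43.9 and 41.5 in E14.5, 15.1, 16 and 13.1 in ISC and 65, 82.3 and 77.2 in AE. No 2 groups overlapped. It fell 2.88-fold from E14.5 to ISC (log2 -1.53 ± 0.12, adjusted p = 6.4e-08) and rose 5.07-fold from ISC to AE (log2 2.34 ± 0.12, adjusted p = 2.0e-09). Among 18 genes of mitochondrial haem and iron-sulphur synthesis, 8 rose and 4 fell from E14.5 to ISC, beside 30.2% and 30.6% of all genes, and 8 rose and 3 fell from ISC to AE, beside 32.6% and 35.2%. Cpox, an enzyme of haem synthesis, had a like dip, at 212 CPM in E14.5 and 99.4 in ISC and 193 in AE. It was not typical of the list, since the median log2 change of the 18 genes from E14.5 to ISC was 0.19.

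Abcb9, a lysosomal peptide transporter, climbed from low levels. It held 0.648, 0.41 and 0.703 CPM in E14.5, 1.96, 3.76 and 1.96 in ISC and 12.4, 15.4 and 16.7 in AE, with log2 changes of 2.16 ± 0.34 (adjusted p = 9.1e-05) and 2.53 ± 0.30 (adjusted p = 3.8e-06). Abcb6, a porphyrin transporter, was 9.08 ± 0.94 CPM in E14.5 but 14.1 ± 0.85 in ISC and 20.9 ± 1.8 in AE. Its values are uncertain, since 90.3% of its 50-base stretches also lie in the transcript of the overlapping gene Gm29253. Abcb6 was the only one of the 47 members above 20% on this measure, and 25 shared no stretch.

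The 3 tested ABCD genes all rose in AE against ISC, beside 32.6% of all genes. Abcd3, which brings branched-chain and long-chain acyl groups into peroxisomes, held 93.7, 95.2 and 85.3 CPM in E12.5, 116, 120.1 and 107 in E14.5, 139, 136 and 131 in ISC and 669.5, 665 and 800.2 in AE. The AE libraries stood at over 4 times any other. The log2 change from ISC to AE was 2.39 ± 0.11 (adjusted p = 7.6e-10). The earlier rise at E14.5, log2 0.33 ± 0.10 (adjusted p = 0.017), lost its call without E12.5 replicate 3, E14.5 replicate 1 or E14.5 replicate 2 (adjusted p 0.056 to 0.075).

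Abcd4, which releases vitamin B12 from lysosomes and is not peroxisomal, rose at each step. It was 5.52, 5.24 and 5.76 CPM in E12.5, 9.82, 9.46 and 10.9 in E14.5, 21.5, 21.3 and 24.3 in ISC and 34, 43.3 and 29.6 in AE, without overlap between groups. The log2 changes were 0.86 ± 0.15, 1.16 ± 0.14 and 0.67 ± 0.14 (adjusted p = 3.2e-04, 8.9e-06 and 7.8e-04). Abcd2, a peroxisomal relative of Abcd3, had 13 counts over E12.5, 25 over E14.5, 1 over ISC and none over AE, and was not tested.

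Other peroxisomal genes rose alongside. Of 14 genes of beta-oxidation and import, 6 rose and none fell at E14.5, beside 23.6% and 25.6% of all genes. From E14.5 to ISC 11 rose and 1 fell, beside 30.2% and 30.6%, and from ISC to AE 13 rose and none fell, beside 32.6% and 35.2%. The exception in AE, named after its value was seen, was the import factor Pex3, at 24.9 CPM in ISC and 27.7 in AE. Acaa1b, a thiolase, was 1.62 and 52.1 CPM in ISC and AE, and Acox2, an oxidase of branched acyl chains, 1.92 and 17.3 (adjusted p = 1.1e-07 and 2.1e-05).

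**Figure D4:**
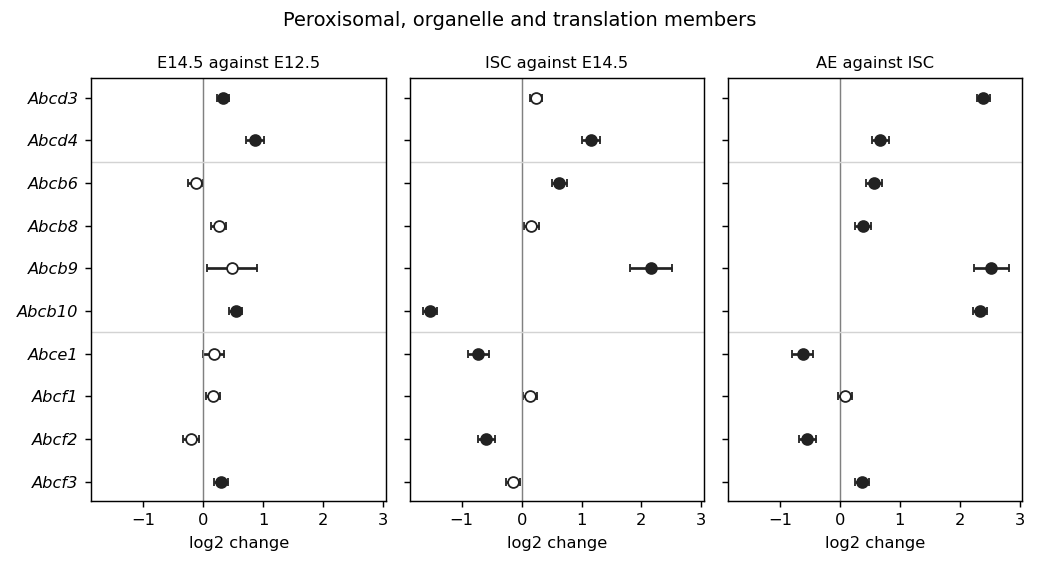
Log2 change ± SE at each of the 3 successive steps for 2 peroxisomal and lysosomal ABCD genes, 4 organelle ABCB genes and the 4 ABCE and ABCF genes. Filled points passed an adjusted p of 0.05 and open points did not. In AE against ISC the ABCD and ABCB points drawn lie right of 0, whereas Abce1 and Abcf2 lie left of it in both adult steps.

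Of the 4 ribosome-acting members, Abce1 and Abcf2 fell in AE against ISC, Abcf3 rose and Abcf1 did not pass the test. Abce1, which splits ribosomes after termination, was 260.0, 282 and 273 CPM in E12.5, 301, 314 and 304 in E14.5, 173, 185 and 198 in ISC and 169, 96.1 and 94.1 in AE. E14.5 was highest, and AE replicate 1 lay close to ISC while the other AE libraries lay well below. It fell 1.66-fold from E14.5 to ISC (adjusted p = 0.0026) and 1.54-fold from ISC to AE (adjusted p = 0.0062), or 1.95-fold without AE replicate 1. Abcf2 declined likewise, from 118 ± 9.0 and 102 ± 5.6 CPM in the embryo to 68.1 ± 5.2 in ISC and 46.5 ± 10 in AE, with falls in ISC (log2 -0.59 ± 0.14, adjusted p = 0.0021) and AE (log2 -0.54 ± 0.14, adjusted p = 0.0033).

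Abcf1, a translation initiation factor partner, held 90.7, 83.4 and 102 CPM in E12.5, 99.7, 101 and 108 in E14.5, 97, 116 and 124.9 in ISC and 112, 132 and 113 in AE. Each group overlapped the next, and the largest of the 3 steps was log2 0.16 ± 0.12. In ISC against E12.5 Abcf1 was called higher (log2 0.29, adjusted p = 0.039). That call was lost under 11 of 18 alternatives (adjusted p 0.051 to 0.18). Abcf3 held 32.1, 36.7 and 37.9 CPM in E12.5, 42.7, 41.4 and 47.4 in E14.5, 39.3, 44.5 and 35.7 in ISC and 56.5, 49.4 and 48.2 in AE. Its rise at E14.5, log2 0.30 ± 0.12 (adjusted p = 0.045), lost its call under 12 of 18 alternatives (adjusted p 0.05 to 0.16), 7 of which left out a library: any embryonic one or ISC replicate 1. AE against E14.5 was not called (log2 0.23 ± 0.12, adjusted p = 0.082). Its rise from ISC to AE, log2 0.37 ± 0.12 (adjusted p = 0.012), lost its call under upper-quartile scaling (log2 0.17, adjusted p = 0.23). Of 17 partners of Abce1 and Abcf1 in ribosome recycling and initiation, 4 rose and 1 fell at E14.5, beside 23.6% and 25.6% of all genes, so the rises were 23.5% and no more than the background. From E14.5 to ISC 2 rose and 10 fell, beside 30.2% and 30.6%. From ISC to AE 1 rose, beside 32.6%, and 6 fell, or 35.3%, near the 35.2% of all genes. Eif2ak4, a sensor kinase of amino acid shortage, went from 59.95 CPM in E14.5 to 39.4 in ISC and 10.8 in AE. Eif3a, the largest subunit of an initiation factor, was 1408, 1048 and 633 CPM.

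The pairs of groups whose multiply aligned reads were handled alike gave these values for the same genes. In ISC against E12.5, 13 members rose and 18 fell, with backgrounds of 33.9% and 34.6%, and the family median was -0.31 beside -0.0053 over all genes. In AE against E14.5, 19 rose and 12 fell, with backgrounds of 36.7% and 41.5%, and the medians were 0.32 and -0.12. Abcc2 was 21.9-fold higher in AE than in E14.5, Abcb1a 8.69-fold, Abcg2 7.66-fold and Abcd3 6.21-fold (adjusted p = 2.3e-08, 7.9e-08, 2.4e-10 and 5.7e-11). Abcc4 was 5.45-fold lower in ISC than in E12.5 and 10.1-fold lower in AE than in E14.5 (adjusted p = 1.4e-08 and 2.2e-09). Abcb10 was 1.99-fold lower in ISC than in E12.5 (adjusted p = 3.9e-06). These comparisons share libraries with the successive steps and are no second sample of them.

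ABC genes that carry other symbols fell outside the name rule. Tap1 and Tap2, which load peptides for antigen presentation, were 20.0 and 3.46 CPM in ISC and 88.9 and 17.8 in AE (log2 2.15 and 2.36, adjusted p = 2.5e-06 and 4.6e-06). Cftr, the chloride channel of the ABCC subfamily, rose from 233 to 398 CPM between the embryonic stages and was highest in ISC, at 857, with 415 in AE (ISC to AE log2 -1.04, adjusted p = 2.4e-06). The 9 members too low to test were Abca6, Abca8a, Abca15, Abca16, Abca17, Abcb5, Abcb11, Abcd2 and Abcg3, whose highest library value was 0.587 CPM, for Abca8a.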

How the data were processed

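Counts of reads per gene symbol were deposited by the authors, 1 file per library, with no normalisation. The submitters' processing notes name mm9, STAR 2.3.1z13 and HTSeq 0.6.1p1, without roles. The annotation and the use of strand were not given in the sources used here. Overlapping genes and antisense partners may therefore share reads. The 5 closing entries that name no gene stayed out. The entry for reads outside genes held 33.4% to 58.1% of all listed reads.

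Counts were tested with edgeR 4.0.16 (quasi-likelihood F tests, TMM scaling, its expression filter, 1 coefficient per group over all 12 libraries, prior count 0.125), with p-values adjusted by Benjamini-Hochberg over 15342 genes. SE is the size of the log2 change divided by the square root of F. Levels are mean ± SD of 3 libraries. Replicates differed by more than sampling noise (chi-square per degree of freedom of at least 3.48), and embryos were pooled, so p-values measure the spread between these libraries. Library depth of 12587626 to 45190749 counts puts the floor of 3 counts over a group at 0.0263 to 0.0606 CPM, for counting error only.

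Members, roles and gene lists were chosen with earlier results of these data known. Results of some genes are not reported here, though counts include them. Values per library were set for members reaching 5 CPM with the 4 largest non-overlapping changes either way and for 16 listed transporters, and from each pathway list up to 3 genes with the largest change at 5 CPM. Other members' values, and Kcnj8 and Kcnj11, were chosen after being seen. Lists got no test. Promoter windows were matched by symbol and coding sequences by transcript, neither by coordinates. The tests were tried on simulated data first. Alternatives were DESeq2 1.42.0, RLE and upper-quartile scaling, no filter, the 6 libraries of a pair alone, a replicate block and leaving out each library.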

Additional observations from a re-analysis of the deposited data

How the results depend on the processing

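Each count of members kept within 1.5 times its value under the 18 alternatives. AE against ISC gave 15 to 20 members higher and 5 or 6 lower, and E14.5 against E12.5 gave 8 to 15 higher and 10 to 14 lower. Of 133 called member changes, 116 kept call and direction throughout. The other 17 lost their call at least once, and 16 of them had an adjusted p of at least 0.01 at the outset. None of the 133 changed sign. Upper-quartile scaling moved the median of all genes by -0.20 in AE against ISC and -0.24 in AE against E14.5, and in AE against ISC it left 15 members higher and 6 lower. It turned all genes there from 5002 higher and 5395 lower to 4247 and 6359, and in AE against E14.5 from 5632 and 6368 to 4792 and 7319. Correlations of deviations between libraries of the same replicate number lay between -0.081 and 0.080 over 18 pairs. For ISC with AE they were 0.032, 0.075 and 0.039, beside -0.090 to 0.043 for unlike numbers. With 3 libraries a group, these values cannot tell whether ISC and AE libraries shared animals. With the number as a replicate block, 5 calls were lost, those of Abcf3 at E14.5, Abca2 from ISC to AE, Abcb1b and Abcc1 in ISC against E12.5 and Abcc12 in AE against E14.5.

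Sign changes met 14 log2 changes reported here, none called at the outset or where the sign changed, and the cause was not tested. With the first sign, settings that made a call in AE against E14.5 were DESeq2 for Abcf3 (adjusted p = 0.045), leaving out AE replicate 2 for Abca13 (adjusted p = 0.0048) and leaving out AE replicate 1 for Abcb4 (adjusted p = 0.016). Under upper-quartile scaling the values were -0.14 for Abcb1b, -0.19 for Abcc10 and -0.12 for Abcf1 in AE against ISC, and -0.17 for Abcc8, -0.032 for Abcf1 and -0.013 for Abcf3 in AE against E14.5. In AE against ISC, Abcb1b was -0.0048 with the replicate block and Abcc10 -0.0015 without the filter. With 1 library left out, the ranges over libraries in AE against ISC were -1.30 to 0.42 for Abca9, -0.59 to 0.13 for Abca12, -0.43 to 0.50 for Abcb1b, -1.12 to 1.27 for Abcb4, -0.010 to 0.088 for Abcc10 and -0.022 to 0.20 for Abcf1. In AE against E14.5 they were -6.12 to 0.19 for Abca13, -2.11 to 0.24 for Abcb4 and -0.11 to 0.45 for Abcc8. In ISC against E12.5 they were -0.55 to 0.42 for Abca14, in ISC against E14.5 -0.47 to 1.39 for Abcc12, and at E14.5 -0.56 to 0.0011 for Abcc8. Members under 1 CPM are limited by depth.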
